A study of Mus musculus with 24 samples.

Results

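The simple epithelial keratins Krt7, Krt8, Krt18, Krt19 and Krt20 were followed across all groups of a knockdown series in mouse embryonic stem (ES) cells. They were found by taking every probe whose RefSeq accession maps to one of these symbols, which gave 6 probes for 5 genes of 22394 genes tested. Krt8 had 2 probes and each other gene had 1. The genes were chosen by values of the same arrays: Krt8 and Krt18 had been seen to be lower with Cdk8 knockdown on day 8 and higher on day 13. Whether values with Med12 knockdown also led to the choice is not recorded. For the keratins, all 6 comparisons of a hairpin with the control hairpin are therefore descriptions, with no p-value. So are day 13 against day 8 within a Cdk8 hairpin and the Cdk8 hairpins against each other on day 8. The averaged Med12 hairpins against the averaged Cdk8 hairpins are a description too. Tests between days in shNTC cells, between the Med12 hairpins and between the Cdk8 hairpins on day 13 share arrays with those comparisons. The choice used no threshold.

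Keratins are the intermediate filament proteins of epithelial cells, and a filament forms only where a type II keratin pairs with a type I keratin. Krt7 and Krt8 are type II keratins, and Krt18, Krt19 and Krt20 are type I. In the mouse embryo, Krt8 and Krt18 are the first keratins to be made, in the trophectoderm and then in the primitive endoderm.

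R1 cells, a mouse ES cell line, carried a short hairpin RNA delivered by lentivirus, in 8 groups of 3 arrays. On day 13 after infection the groups were shMed12-1, shMed12-2, shCdk8-1, shCdk8-2 and shNTC, the non-targeting control. On day 8 they were shCdk8-1, shCdk8-2 and shNTC. Cdk8 is the kinase of the Mediator kinase module, and Med12 is the subunit that activates it. The labels give no Med12 knockdown on day 8, and all groups, the control included, share the R1 line and a lentiviral infection. RNA of the cells was labelled with Cy5 and hybridised with a Cy3-labelled universal reference RNA from a mixture of mouse cell lines, in the same orientation on every array. The labels call the replicates biological without saying whether cultures or infections were separate, so tests measure the spread between these arrays.

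Values below are log2 ratios of Cy5 over Cy3. A value of 0 means as much signal as from the reference RNA, and a difference of 1 is a doubling of the ratio. The ratio of one probe cannot be set against that of another, because each depends on the gene's amount in the reference. A difference was called where limma's adjusted p, over all 22394 genes, was under 0.05. In bulk RNA, more cells with a transcript and more transcript per cell cannot be told apart.

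The arrays held ES cell RNA: 16 of 16 measured pluripotent ES cell markers lay above the reference in all 8 groups. The targeted transcripts were lower in their groups. Med12 was at -1.0 with shMed12-1 and -0.88 with shMed12-2 relative to shNTC. Cdk8 was at -0.95 and -0.64 with shCdk8-1 and shCdk8-2 on day 13, and at -0.71 and -0.31 on day 8. Between 48.9% and 76.1% of the spots of an array were well above background in Cy5, and every keratin probe was so in both channels on all 24 arrays. On 2 arrays, replicate 1 of shCdk8-1 on day 8 and replicate 3 of shMed12-1 on day 13, the log ratios of genes were compressed against the other replicates, with a slope of 0.79, where the remaining arrays had slopes from 0.97 to 1.12. No call on Krt7, Krt8, Krt18 or Krt19 changed without these arrays, and the values for Krt20 that did are given beside it.

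Krt7, Krt8 and Krt18 lie on chromosome 15 and Krt19 and Krt20 on chromosome 11 (RefSeq annotation of GRCm38.p6). Krt8 (chr15:101996711-102004342, minus strand) and Krt18 (chr15:102028216-102032026, plus strand) are the pair whose values moved most closely together, and their promoters are shown for that reason. Each window runs from 250 bases before to 50 bases after the RefSeq gene start, 5′ to 3′ on the gene's strand, at chr15:102004293-102004592 (-) and chr15:102027966-102028265 (+). Capitals mark the TATA box core TATAA, the GATA factor motif AGATAA and the Krüppel-like factor motif core CACCC on either strand. On the other strand they read TTATA for the TATA box, then TTATCT for the GATA motif, and finally GGGTG.
Krt8: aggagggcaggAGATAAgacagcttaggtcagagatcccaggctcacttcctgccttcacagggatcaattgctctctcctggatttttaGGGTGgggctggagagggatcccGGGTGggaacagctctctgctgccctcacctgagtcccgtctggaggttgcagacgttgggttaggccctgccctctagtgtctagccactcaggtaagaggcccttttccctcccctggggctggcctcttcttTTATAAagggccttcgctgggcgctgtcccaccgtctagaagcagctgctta
Krt18: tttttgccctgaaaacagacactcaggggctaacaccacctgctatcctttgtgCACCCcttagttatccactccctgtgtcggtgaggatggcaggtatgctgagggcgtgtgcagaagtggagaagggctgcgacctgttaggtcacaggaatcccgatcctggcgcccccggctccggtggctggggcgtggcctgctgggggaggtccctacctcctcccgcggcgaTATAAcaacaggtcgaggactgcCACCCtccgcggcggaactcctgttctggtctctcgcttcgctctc
In these windows TATAA begins at position -1 for Krt8, overlapping a TTATA at -2, and at -19 for Krt18, counted from the gene start as 1. AGATAA was found in Krt8 at -239 and not in the Krt18 window. GGGTG was found in Krt8 at -160 and -137, and CACCC in Krt18 at -196 and 5. Of 32544 RefSeq promoters of this length, 24.8% hold TATAA, 11.2% AGATAA and 57.7% CACCC on either strand, and the AP-1 motif TGANTCA, held by 7.79%, was not found in either window. Promoters of Krt7 and Krt20 were also matched, 4 of the 5 genes in all.

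All 5 keratins were highest with shMed12-1 on day 13 and lowest with shCdk8-2 on day 8. Between these groups the mean log2 ratio spanned 3.99 for Krt7, 4.35 for Krt8, 4.49 for Krt18, 3.39 for Krt19 and 2.77 for Krt20. On day 13 the order from high to low was shMed12-1, shMed12-2 and then the other groups for all 5 genes. For Krt8 the order of group means continued with shCdk8-2 (-0.72) and shCdk8-1 (-0.74) on day 13, shNTC on day 13 (-1.11), and then shNTC (-2.03), shCdk8-1 (-2.57) and shCdk8-2 (-3.19) on day 8. In that order only the day 13 Cdk8 hairpins overlapped for Krt8 and Krt18. More neighbours overlapped for the other genes: the Cdk8 hairpins on day 13 with each other and shCdk8-2 with shNTC for Krt7, shCdk8-1 with shNTC on day 13 for Krt19, and shCdk8-1 with shNTC on day 8 for Krt7 and Krt19. For Krt20, shNTC and shCdk8-1 overlapped across both days, with SDs of up to 0.48, and shCdk8-1 overlapped shCdk8-2 on day 13.

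**Figure D1:**
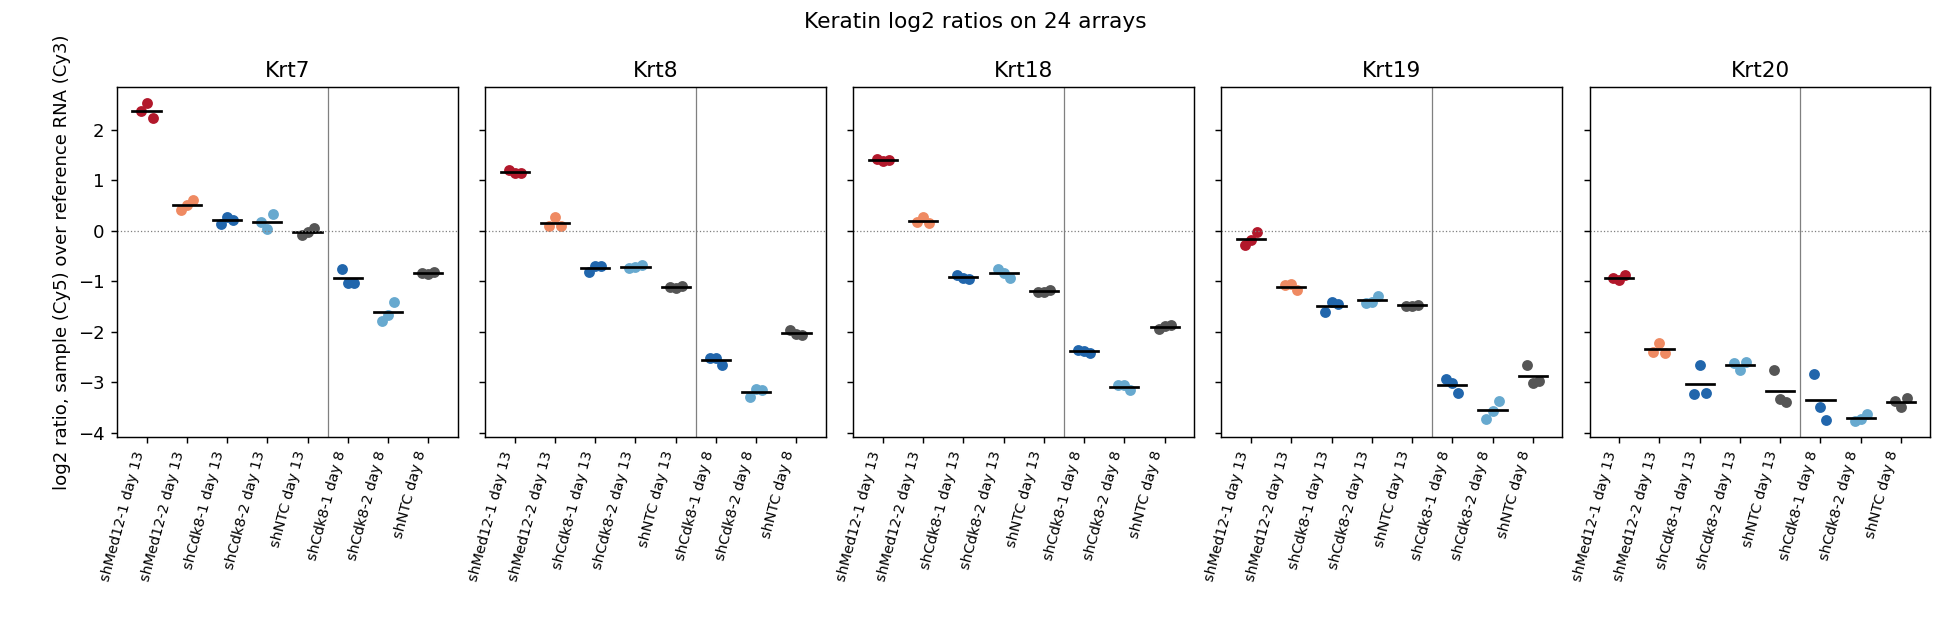
Log2 ratio of sample (Cy5) over reference RNA (Cy3) for each keratin (vertical axis, shared) on each of 24 arrays (points) by group (horizontal axis; black lines are means of 3 arrays; the vertical line parts day 13 on the left from day 8). All 3 shMed12-1 arrays lie above all other arrays for every keratin, and Krt8 spans from -3.29 to 1.19.

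Med12 knockdown went with higher keratins. Krt18, a type I keratin and the usual partner of Krt8, was at 1.43, 1.38 and 1.40 on the shMed12-1 arrays, at 0.17, 0.28 and 0.15 on the shMed12-2 arrays, and at -1.21, -1.22 and -1.17 on the shNTC arrays of day 13. The groups did not overlap. Against shNTC, Krt18 was 2.60 higher with shMed12-1 (SE 0.05, 95% interval 2.50 to 2.71), a 6.07-fold difference, and 1.40 higher with shMed12-2 (SE 0.05, 1.29 to 1.505), or 2.64-fold.

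Krt8, the type II partner, was at 1.19, 1.14 and 1.15 with shMed12-1, at 0.09, 0.26 and 0.09 with shMed12-2, and at -1.12, -1.13 and -1.09 with shNTC. Again no array of one group reached another. The difference from shNTC was 2.27 with shMed12-1 (SE 0.06), or 4.84-fold, and 1.26 with shMed12-2 (SE 0.06), or 2.40-fold. The other Krt8 probe gave 2.16 and 1.20 (SE 0.06 each) in the same comparisons.

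Krt7, a type II keratin of ducts and other simple epithelia, stood at 2.38, 2.52 and 2.22 with shMed12-1, against 0.40, 0.50 and 0.61 with shMed12-2 and -0.09, -0.02 and 0.05 with shNTC. It was thus 2.39 higher with shMed12-1 (SE 0.10) and 0.52 higher with shMed12-2 (SE 0.10). Krt20, a type I keratin of intestinal and urothelial epithelium, was at -0.94, -0.98 and -0.88 with shMed12-1, at -2.40, -2.23 and -2.42 with shMed12-2, and at -2.76, -3.33 and -3.40 with shNTC. Its differences were 2.23 and 0.82 (SE 0.19 each), and the shNTC arrays spread more widely than those of either Med12 hairpin, without reaching them. Krt19, the smallest keratin, which lacks a tail domain, was at -0.28, -0.19 and -0.03 with shMed12-1, at -1.08, -1.06 and -1.18 with shMed12-2, and at -1.48, -1.48 and -1.47 with shNTC. The difference was 1.31 with shMed12-1 and 0.37 with shMed12-2 (SE 0.10 each).

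All 5 keratins were called higher with each Med12 hairpin, where 12.9% of all genes were called higher with shMed12-1 and 9.04% with shMed12-2. With shMed12-1 their differences ranked 3 (Krt18), 5 (Krt7), 7 (Krt8), 9 (Krt20) and 54 (Krt19) from the highest of 22394 genes. With shMed12-2 the ranks were 21 (Krt18), 32 (Krt8), 172 (Krt20), 545 (Krt7) and 1117 (Krt19). The median difference of the 5 was 2.27 with shMed12-1 and 0.82 with shMed12-2, where the median of all genes was 0.00 with each. Under median centring in place of loess, the calls on Krt7 (0.43), Krt19 (0.29) and Krt20 (0.75) with shMed12-2 were lost. Slides were shared with shNTC of day 13 by 2 shMed12-2 arrays and by no shMed12-1 array, and within those slides Krt18 differed by 1.39 and 1.45 and Krt8 by 1.22 and 1.35. From the Cy5 channel alone the order with shMed12-1 was another: Krt7 (2.39), Krt20 (2.14), Krt18 (2.10), Krt8 (1.82) and Krt19 (1.18). In the authors' deposited log2 ratios Krt7 also came first, at 2.74, before Krt18 (2.60), Krt20 (2.56), Krt8 (2.25) and Krt19 (1.21).

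**Figure D2:**
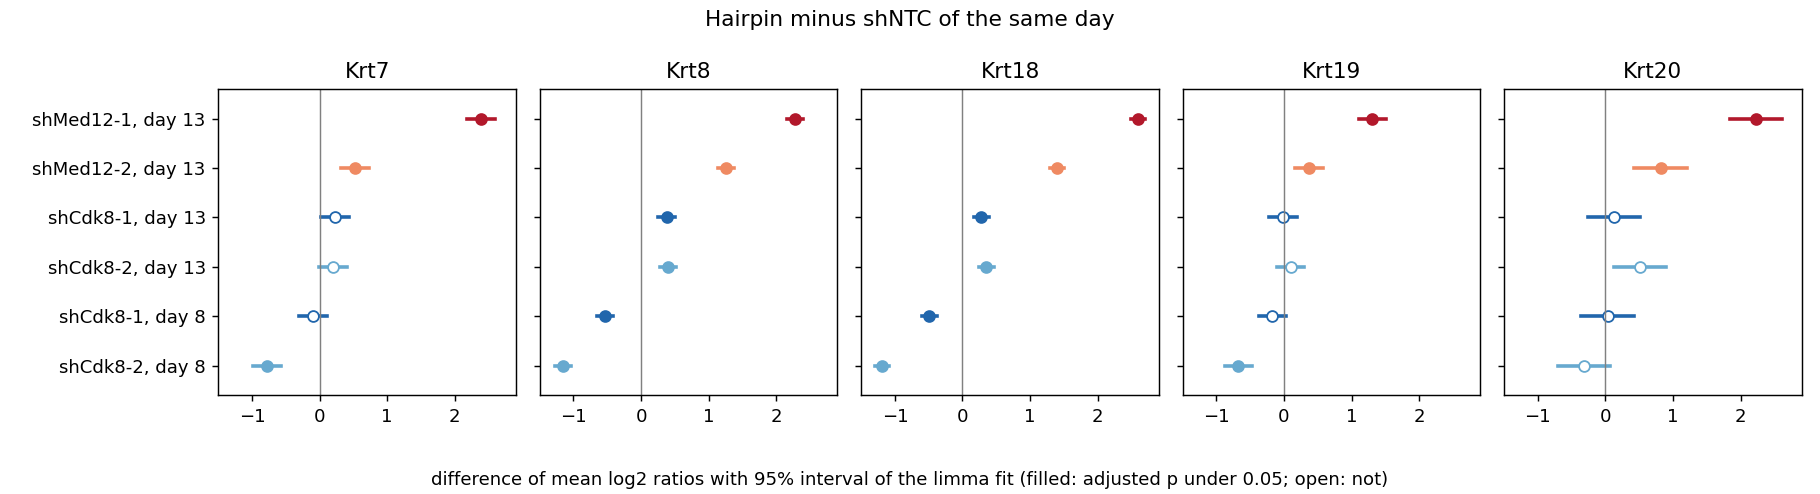
Difference of the mean log2 ratio of each hairpin group from shNTC of the same day (horizontal axis, log2; points with 95% intervals of the limma fit, 3 arrays against 3) for each keratin, with filled points where the adjusted p was under 0.05. The Med12 hairpins lie right of 0 for all 5 keratins, up to 2.60 for Krt18, and on day 8 Krt8 and Krt18 lie left of 0 with both Cdk8 hairpins.

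The Med12 hairpins differed from each other in every keratin. With shMed12-2 minus shMed12-1, Krt7 was at -1.87 (SE 0.10, adjusted p = 4.8e-11 in limma), Krt20 at -1.41 (SE 0.19, adjusted p = 1.2e-05), Krt18 at -1.20 (SE 0.05, adjusted p = 2.3e-12), Krt8 at -1.01 (SE 0.06, adjusted p = 1.5e-10) and Krt19 at -0.94 (SE 0.10, adjusted p = 5.6e-07). All 5 were called lower with shMed12-2, against 11.2% of all genes. No slide held arrays of both Med12 hairpins, so no difference within a slide can be given. Med12 itself differed by 0.12 between the hairpins (95% interval -0.04 to 0.28, adjusted p = 0.3).

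On day 13 the Med12 hairpins, averaged, also lay above the Cdk8 hairpins, averaged, in a comparison that does not use the shNTC arrays. Krt18 was 1.68 higher (SE 0.04), Krt8 1.38 (SE 0.04), Krt7 1.25 (SE 0.07), Krt20 1.20 (SE 0.13) and Krt19 0.80 (SE 0.07). Since Med12 values may have led to the choice of the genes, these are descriptions, with no p-value. All 5 were called higher, against 9.69% of all genes. The size rests in part on shMed12-1, as the hairpin values above show. From the Cy5 channel alone Krt18 was 1.26 and Krt8 1.12 higher, and all 5 were still called. From Cy3 alone, the reference, Krt18 was at -0.53 and Krt8 at -0.32, both called.

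Keratins were also higher on day 13 than on day 8 within a hairpin. In shNTC cells Krt19 was at -1.48, -1.48 and -1.47 on day 13, against -2.67, -3.00 and -2.96 on day 8, and Krt8 was at -1.12, -1.13 and -1.09 against -1.97, -2.05 and -2.07. Neither gene's days overlapped. The differences in shNTC cells were 1.40 for Krt19 (SE 0.10, adjusted p = 3.4e-09 in limma), 0.92 for Krt8 (SE 0.06, adjusted p = 9.4e-10), 0.82 for Krt7 (SE 0.10, adjusted p = 6.4e-06) and 0.70 for Krt18 (SE 0.05, adjusted p = 6.2e-09). Krt20 differed by 0.23 (95% interval -0.16 to 0.61, adjusted p = 0.47) and its days overlapped. Its size also depends on the processing, as its raw Cy5 signals were only 197 to 217 on day 8 and 221.5 to 314.5 on day 13. In the authors' deposited log2 ratios it differed by 0.40. So 4 of 5 keratins were called higher in shNTC cells, against 8.56% of all genes. The shNTC arrays were also the controls in the comparisons by which Krt8 and Krt18 were chosen, so these tests are not independent of the choice.

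With shCdk8-1 the same 4 keratins were called higher on day 13, against 11.3% of all genes. The differences were 1.83 for Krt8 (SE 0.06), 1.56 for Krt19 (SE 0.10), 1.47 for Krt18 (SE 0.05) and 1.15 for Krt7 (SE 0.10). These values are built from the arrays by which Krt8 and Krt18 were chosen. Krt20 differed by 0.32 and was not called, which became 0.59 and called without the compressed arrays. In the authors' deposited log2 ratios it was 0.81 and called.

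With shCdk8-2 all 5 keratins were called higher on day 13, against 12.2% of all genes. Krt8 was at -0.74, -0.72 and -0.69 on day 13, against -3.29, -3.14 and -3.15 on day 8. This difference of 2.48 (SE 0.06), or 5.57-fold, also a description, was the largest of any keratin between days in these ratios. Krt18 differed by 2.25 (SE 0.05), Krt19 by 2.18 (SE 0.10), Krt7 by 1.79 (SE 0.10) and Krt20 by 1.05 (SE 0.19). In the authors' deposited log2 ratios Krt7 was at 2.54, level with Krt8 (2.54), and Krt20 was at 1.46. In the 2 pairs of shCdk8-2 arrays of both days on 1 slide, Krt8 differed by 2.45 and 2.57, and in the 2 such pairs of shNTC arrays by 0.84 and 0.96.

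**Figure D3:**
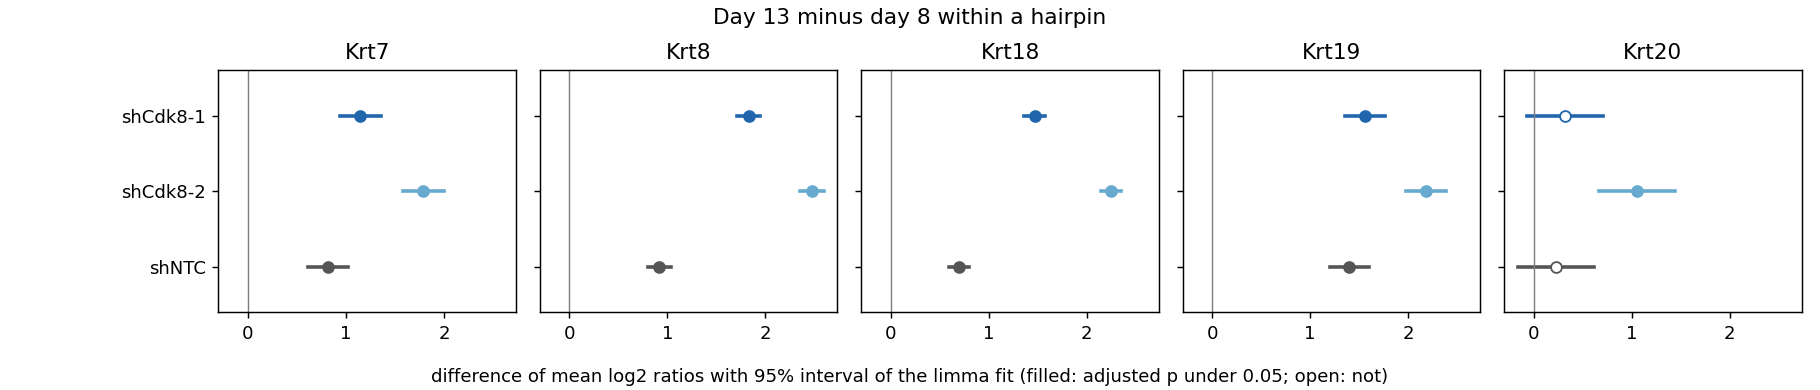
Difference of the mean log2 ratio between day 13 and day 8 (horizontal axis, log2; points with 95% intervals of the limma fit, 3 arrays against 3) for each keratin within shCdk8-1, shCdk8-2 and shNTC, with filled points where the adjusted p was under 0.05. Krt8 lies at 1.83 and 2.48 with the Cdk8 hairpins and at 0.92 with shNTC.

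On day 8 Krt8 and Krt18 lay below shNTC with both Cdk8 hairpins, as was known when the genes were chosen. Krt18 was at -2.35, -2.39 and -2.42 with shCdk8-1, at -3.06, -3.05 and -3.16 with shCdk8-2, and at -1.94, -1.89 and -1.87 with shNTC. Krt8 was at -2.52, -2.52 and -2.65 with shCdk8-1, at -3.29, -3.14 and -3.15 with shCdk8-2, and at -1.97, -2.05 and -2.07 with shNTC. The 3 groups did not overlap in either gene. The differences from shNTC were -1.19 for Krt18 and -1.16 for Krt8 with shCdk8-2, and -0.49 and -0.53 with shCdk8-1.

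The other keratins were also lower with shCdk8-2: Krt7 was at -0.78 and Krt19 at -0.68 relative to shNTC, both called, and Krt20 at -0.32, not called. The size for Krt7 depends on the processing, as its raw Cy5 signals in this group were only 139.5 to 179.5. In the authors' deposited log2 ratios Krt7 was at -1.27, beside -1.15 for Krt8 and -1.22 for Krt18. With shCdk8-2, then, 4 of 5 were called lower, where 6.62% of all genes were. With shCdk8-1 the differences were -0.10 for Krt7, -0.17 for Krt19 and 0.03 for Krt20, none of them called, so that 2 of 5 were called lower, where 8.22% of all genes were. That count moved with the processing: it was 0 under median centring, and 5 from the Cy5 channel alone, where Krt20 was at -0.33. Within the 1 slide that shCdk8-2 and shNTC shared on day 8, Krt18 differed by -1.22 and Krt8 by -1.17, and shCdk8-1 shared none.

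The Cdk8 hairpins differed from each other on day 8. Krt8 and Krt18 had been chosen by these arrays, so the keratin values are a description, with no p-value. With shCdk8-2 minus shCdk8-1, Krt18 was at -0.70 (SE 0.05), Krt7 at -0.67 (SE 0.10), Krt8 at -0.63 (SE 0.06) and Krt19 at -0.50 (SE 0.10). Krt20 differed by -0.35 and was not called. Without 1 array of shCdk8-1 it was -0.55 and called (replicate 3) or -0.09 and not called (the compressed replicate 1). That is 4 of 5 called lower, against 8.57% of all genes. No slide held arrays of both Cdk8 hairpins of the same day. The deeper keratin values came with the hairpin that lowered Cdk8 less. Cdk8 was 0.40 higher with shCdk8-2 than with shCdk8-1 on day 8 (SE 0.07, adjusted p = 0.00082 in limma).

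On day 13 the Cdk8 hairpins were close to each other. Krt8 was at -0.81, -0.70 and -0.69 with shCdk8-1, at -0.74, -0.72 and -0.69 with shCdk8-2, and at -1.12, -1.13 and -1.09 with shNTC. Both hairpins lay above shNTC without overlap, by 0.38 and 0.40 for Krt8 and by 0.28 and 0.36 for Krt18 (SE 0.05 to 0.06), the direction already known. Of the 5 keratins, 2 were called higher with each hairpin, where 6.5% of all genes were with shCdk8-1 and 5.86% with shCdk8-2. Both counts were 0 under median centring. Krt7 (0.22 and 0.19), Krt19 (-0.01 and 0.10) and Krt20 (0.13 and 0.51) were not called with shCdk8-1 or shCdk8-2. The Krt20 value with shCdk8-2 was 0.71 and called without replicate 1 of shNTC, and called at 0.51 without the compressed arrays. From the Cy5 channel alone Krt18 was not called with shCdk8-1 (0.25) or shCdk8-2 (0.28), and Krt8 was called with each.

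Between the Cdk8 hairpins on day 13 none of the 5 was called, against 11.7% of all genes called in either direction. The intervals of the differences were -0.10 to 0.14 for Krt8, -0.03 to 0.18 for Krt18, -0.24 to 0.18 for Krt7, -0.09 to 0.32 for Krt19 and -0.01 to 0.77 for Krt20. At an unadjusted p under 0.05, 0 of the 5 pass in the same limma fit. From the Cy5 channel alone, Krt20 was called at 0.45.

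The change of a hairpin's difference from shNTC between days was 0.91 for Krt8 and 0.77 for Krt18 with shCdk8-1, as a description. With shCdk8-2 it was 1.56 for Krt8, 1.55 for Krt18, 0.97 for Krt7 and 0.78 for Krt19. Those were 2 of 5 called higher with shCdk8-1, where 0.397% of all genes were, and 4 of 5 with shCdk8-2, where 2.93% were. Under median centring these counts were 0 and 2. In the authors' deposited log2 ratios the change with shCdk8-2 was 1.47 for Krt7, beside 1.53 for Krt8 and 1.58 for Krt18. Krt20 with shCdk8-2 was at 0.83 and not called, and at the same value it was called without the compressed arrays. From Cy5 alone it was called at 0.73, and from the authors' deposited log2 ratios at 1.06.

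The ratio joins both channels, so each was also fitted alone after quantile normalization. Raw Cy5 signals ran from 6412 to 154122 for Krt8, from 13024 to 258879 for Krt18, from 604.5 to 11317.5 for Krt19, from 139.5 to 2942 for Krt7 and from 152.5 to 1355 for Krt20, over a local background of 66 to 110.5. The span of group means in Cy5 was 4.15 for Krt8, 4.03 for Krt18, 3.95 for Krt7, 3.57 for Krt19 and 2.70 for Krt20. In Cy3, which holds the same reference RNA on every array, it was 0.49, 0.67, 0.18, 0.23 and 0.12 for the same genes in that order.

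The Cy3 signals of Krt8 and Krt18 nevertheless differed between groups. Krt18 had raw Cy3 signals of 39260, 36233.5 and 47625.5 with shMed12-1, against 64918, 67077 and 63361 with shNTC of day 13, and these did not overlap. In Cy3 alone Krt18 was at -0.66 with shMed12-1 and -0.48 with shMed12-2 (SE 0.08 each), both called. Krt8 was at -0.49 with shMed12-1, called, and at -0.34 with shMed12-2, not called (SE 0.08 each). In Cy3 alone 149 genes were called with shMed12-1 and 8 with shMed12-2. Krt7, Krt19 and Krt20 were not called in Cy3 in any comparison. In Cy5 alone the difference from shNTC was smaller for Krt18 and Krt8 than in the ratio: 2.10 for Krt18 and 1.82 for Krt8 with shMed12-1, and 0.96 and 0.93 with shMed12-2. All 5 keratins were still called higher with each Med12 hairpin in Cy5 alone. On these shMed12-1 arrays the raw Cy5 signals of Krt18 were 208837, 252738 and 258879, against 61878, 57042 and 69710 with shNTC, and whether they bear on the Cy3 values was not tested.

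**Figure D4:**
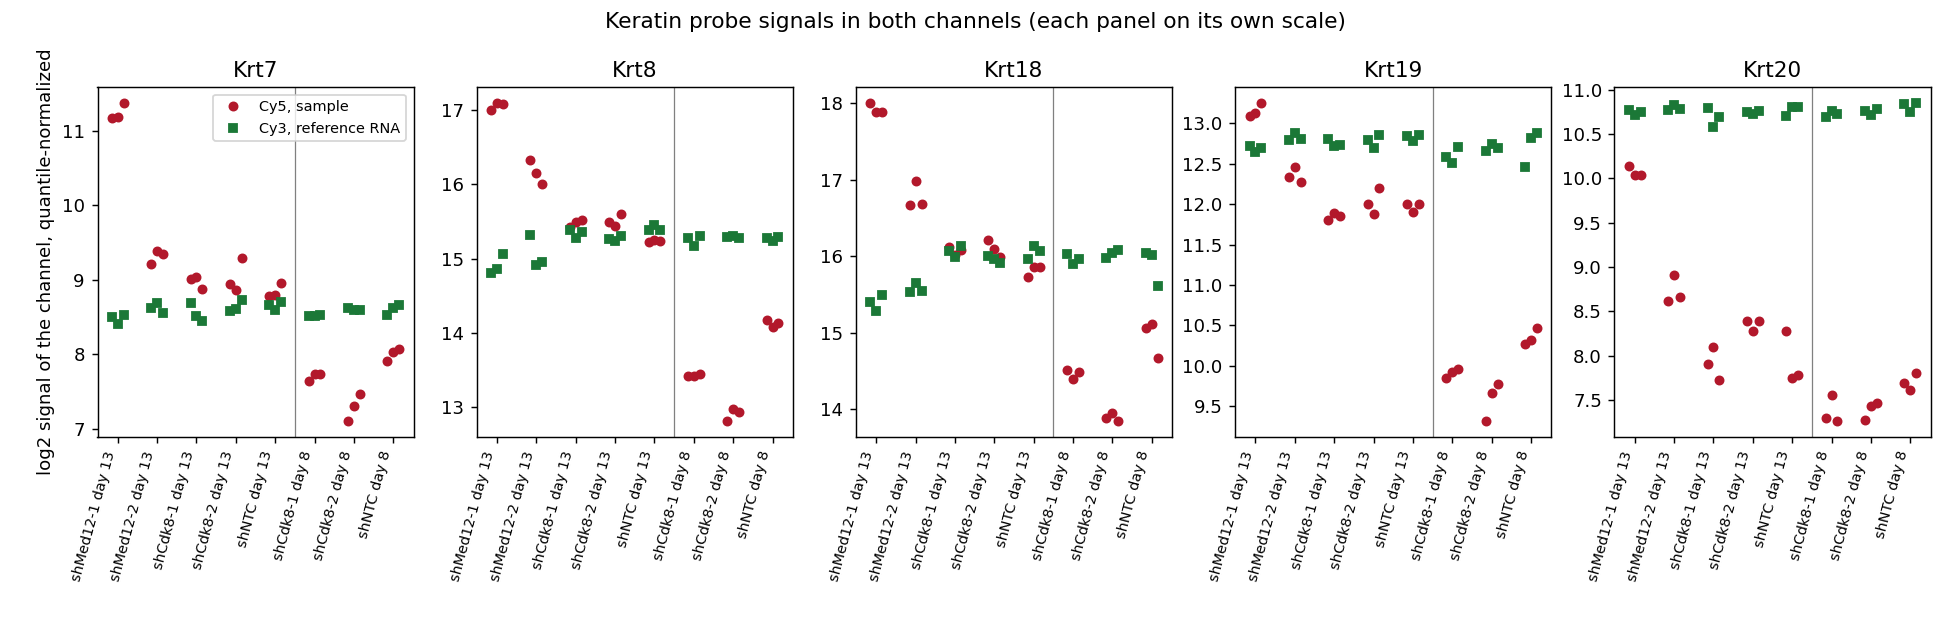
Quantile-normalized log2 signal (vertical axis, each panel on its own scale) of Cy5, the sample (red circles), and Cy3, the reference RNA (green squares), for each keratin on each of 24 arrays by group, with day 13 left of the vertical line. Group means span more in Cy5 than in Cy3 (4.15 against 0.49 for Krt8). Cy3 of Krt8 and Krt18 is lower with each Med12 hairpin than with shNTC of day 13, which adds to their ratios.

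Krt8 and Krt18 varied together. Across the 8 group means, which share the reference RNA, Pearson's r between them was 0.99, and across 10 pairs of the 5 keratins it ran from 0.87 (Krt19 and Krt20) to 0.99. Within groups, over 24 arrays, deviations of Krt8 and Krt18 from their group means had an r of 0.08. Krt8 minus Krt18 varied far less than either gene, between -0.24 ± 0.01 (SD, n = 3) with shMed12-1 and 0.18 ± 0.10 with shCdk8-1 on day 13. In shNTC cells it was 0.09 ± 0.00 on day 13 and -0.13 ± 0.08 on day 8.

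**Figure D5:**
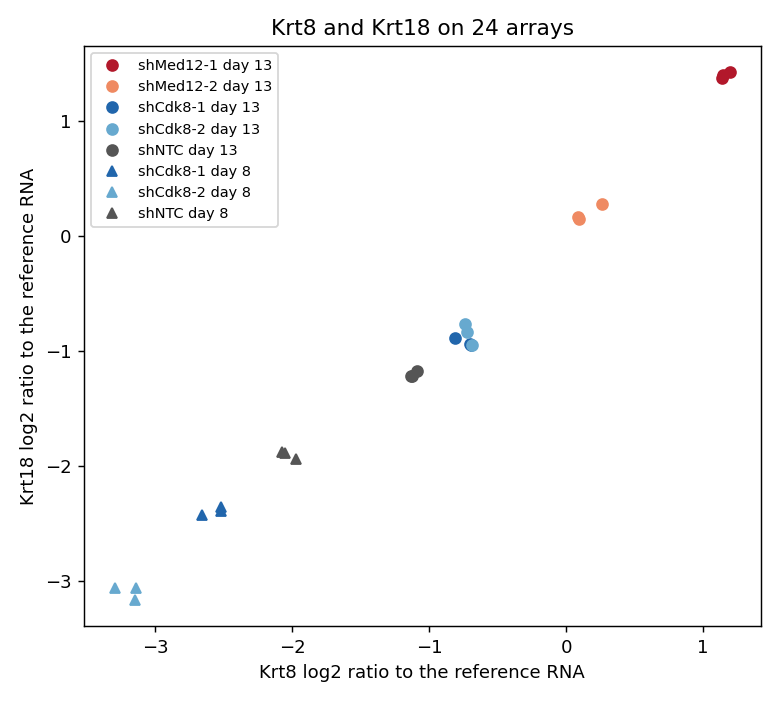
Krt18 log2 ratio (vertical axis) against Krt8 log2 ratio (horizontal axis) on 24 arrays, with circles for day 13 and triangles for day 8, coloured by hairpin. Both genes vary together over the groups, with group means of 1.40 for Krt18 and 1.16 for Krt8 with shMed12-1 at the top and -3.09 and -3.19 with shCdk8-2 on day 8 at the bottom.

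Among 13726 other genes with a symbol, the group means most like those of Krt18 were those of Krt13, a type I keratin (r = 0.995 over 8 groups), followed by Slc25a24, Kctd10, Plekhg3 and Cmtm3, and those least like it were of Esco2 (r = -0.989), Tom1 and Ncapd2. For Krt8 the closest were Dusp14, a dual-specificity phosphatase (r = 0.996), Slc25a24, a mitochondrial carrier, Errfi1, an inhibitor of the EGF receptor, Ap2s1 and Jkamp. The least like it were Poglut1 (r = -0.988), Txlng and Zfp101. Their group means spanned less than the 4.35 of Krt8, from 0.47 for Jkamp to 2.21 for Slc25a24. These are descriptions over few group means, searched across many genes.

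The counts of other gene lists stand beside the shares of all genes called higher given above and these shares called lower: 12% with shMed12-1, 8.77% with shMed12-2, and 9.01% between days in shNTC cells. Of 12 other type I keratins measured, 2 were called higher and 1 lower with shMed12-1: Krt13 at 1.22 (SE 0.11), Krt15 at 0.32 (SE 0.09) and Krt17, a keratin of basal and stressed epithelia, at -0.80 (SE 0.12). That is near the share of all genes. The median of the 12 was 0.09. With shMed12-2 only Krt13 was called, at 0.57 (SE 0.11), of the same 12. Of 9 other type II keratins, 0 were called higher with either Med12 hairpin, and Krt71, a hair follicle keratin, was called lower at -0.38 with shMed12-1. With shMed12-2 Krt79 (-0.44) and Krt71 (-0.40) were called lower. The median of the 9 was -0.06 with each Med12 hairpin, and -0.02 with shMed12-1 without the compressed arrays.

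Among genes that anchor keratin filaments, most were called with shMed12-1. Of 13 plakin and desmosome genes measured, 8 were called higher and 1 lower, with a median of 0.41. They included Ppl (0.72, SE 0.07), a plakin of the cell envelope, Pkp2 (0.69, SE 0.05), a desmosomal plaque protein, and Plec (0.61, SE 0.10), a linker of filaments. Without the compressed arrays 7 were called higher and 0 lower, with a median of 0.27. With shMed12-2, 2 of 13 were called higher, Pkp2 (0.53) and Dst (0.44), and 1 lower, with a median of 0.03, and without the compressed arrays 3 higher and 2 lower. No array of shMed12-2 or shNTC is left out there, so only the shared estimate of the spread differs. On day 13 against day 8 in shNTC cells, 4 of 13 were called higher, among them Pkp2 (0.58) and Ppl (0.45), and Dst was called lower at -0.76.

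In shNTC cells, 14 of 25 epithelial junction genes were called higher on day 13 and 0 lower, with a median of 0.45, where 8.56% of all genes were higher. The largest were Cldn7 (1.87, SE 0.07), Cldn6 (1.22, SE 0.23), claudins of tight junctions, and Crb3 (1.04, SE 0.15), a polarity protein. With shMed12-1, 8 of 25 were called higher and 1 lower, with a median of 0.06, where 12.9% of all genes were higher. With shMed12-2, 10 of 25 were called higher and 0 lower, with a median of 0.29, where 9.04% were higher. Without the compressed arrays 10 were called higher with shMed12-1, with a median of 0.16, and 16 with shMed12-2. Of epithelial transcription factors, 9 of 24 were called higher and 3 lower with shMed12-1, with a median of -0.02, which was 0.12 without the compressed arrays. Gata3 (1.80, SE 0.12) and the AP-1 gene Fosl2 (1.11) led the higher ones.

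Markers of cell types that make Krt8 and Krt18 moved with some of these differences. Of 13 trophectoderm and trophoblast markers other than the keratins, 7 were called higher and 0 lower with shMed12-1, with a median of 0.44, among them Gata3 (1.80) and Gata2 (1.72), factors of trophoblast, and Esx1 (0.998). Without the compressed arrays 9 were called higher, with a median of 0.64. With shMed12-2 there were 2 higher, Cited1 (0.83) and Gata3 (0.69), and 0 lower, with a median of 0.05. Cdx2, which defines trophectoderm, was at -0.22 with shMed12-1 (adjusted p = 0.64 in limma) and -0.72 with shMed12-2 (adjusted p = 0.11), and Elf5, a trophoblast gene, was above background on no array. The median log2 ratio of the 13 on an array ran from 0.54 to 1.18 with shMed12-1, from 0.82 to 0.91 with shMed12-2 and from 0.88 to 0.90 with shNTC of day 13.

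Of 19 primitive and visceral endoderm markers, 10 were called lower and 0 higher with shCdk8-2 on day 8, with a median of -0.81, led by Gata6 (-1.38), Foxa2 (-1.34) and Sox7 (-1.28). With shCdk8-1, 8 were called lower and 1 higher, with a median of -0.18, or -0.10 without the compressed arrays. In shNTC cells on day 13 against day 8, when the keratins were higher, 12 of 19 were called lower and 0 higher, with a median of -0.54. Between days with shCdk8-1, 11 were lower and 0 higher, where 12.8% of all genes were lower. With shCdk8-2, where Krt8 differed most between days, 5 were lower and 2 higher, with a median of -0.10, where 15% of all genes were lower. With shMed12-1, 3 were higher and 5 lower. Without the compressed arrays, 3 were higher and 7 lower with shMed12-1, with a median of -0.04. With shMed12-2, 4 were then higher and 8 lower, with a median of -0.03. The median on an array ran from -0.13 to -0.03 with shCdk8-2 on day 8, from -0.03 to 0.02 with shCdk8-1 and from 0.01 to 0.18 with shNTC on day 8. Ttr was above background on no array.

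Fibroblast and feeder markers stayed low: the median log2 ratio of 20 on an array ran from -3.495 to -3.11 with shMed12-1 and from -3.71 to -3.53 with shNTC of day 13. Of the 20, 9 were called higher with shMed12-1, led by Acta2 (1.81) and Tagln (1.47), and 0 lower, and 6 higher and 1 lower with shMed12-2, or 9 and 2 without the compressed arrays. Of 16 ES cell markers, 8 were called lower with shMed12-1, led by Pou5f1 (-1.12, SE 0.26) and Tdgf1 (-1.0), and 1 with shMed12-2. The values of these named genes include the compressed shMed12-1 array, so their size rests in part on it. The median log2 ratio of the 16 on an array ran from 3.85 to 4.76 with shMed12-1 and from 4.92 to 5.02 with shNTC of day 13. Without the compressed arrays 9 were called lower with shMed12-1, and the median was -0.37 in place of -0.61, and with shMed12-2 5 were lower and 1 higher. The part of these cell types in the keratin values was not tested.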

How the data were processed

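RNA of R1 ES cells was hybridised to 24 Agilent 2-colour arrays, 8 groups of 3, and read with Feature Extraction 10.7, per the submitters' processing notes. The deposited scanner files give median spot intensity and median local background for Cy5 and Cy3, not normalized. Per the file headers they also carry Feature Extraction's own log10 ratio of the dyes. In the authors' series table the deposited values are log2 ratios, with the sample on top, since they matched the scanner ratio with a slope of 1.00. Column medians there were -0.0049 to 0.12, and how it was normalized further is not known.

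Here the spot intensities were background-corrected (normexp, offset 50) and the log2 ratios loess-normalized array by array, giving control and outlier spots no weight. Of 41174 probes, 22951 were named by matching their accession to RefSeq (GRCm38.p6). A probe was kept if one group or more had it well above background in Cy5 on each of its 3 arrays (28304), and the brightest kept probe stood for a gene. That gave 22394 genes, of which 13731 had a symbol. Group means were fitted to all arrays with limma 3.58.1 in R 4.3.3 (data.table, version 1.17.8), with 16 residual degrees of freedom, a two-sided moderated test and Benjamini-Hochberg adjustment over all genes. The fit was tested on simulated data.

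The members and gene lists were chosen with earlier results of these data known. Tests had been planned for the Med12 comparisons with shNTC and with the Cdk8 hairpins. They had also been planned for days within a Cdk8 hairpin and between the Cdk8 hairpins on day 8. Their p-values for the keratins were dropped after the values had been seen. Named genes are the members, Cdk8 and Med12, for Krt8 and Krt18 the 5 genes most like and 3 least like them over the group means, and up to 4 called genes a list with the largest differences. Cdx2 is named beside them as a defining marker. Krt8 and Krt18 were left out of the trophectoderm list after its counts had been seen (9 of 15 called higher with shMed12-1 with them). Replicate numbers did not pair the arrays: 5 of 36 same-number pairs of arrays correlated above 0.1. The number of arrays limits the precision.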

Additional observations from a re-analysis of the deposited data

Results flagged for a closer look

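The difference of each Cdk8 hairpin from shNTC was also compared between the days, as its value on day 13 minus its value on day 8. Keratins were called in 6 cases. The differences lay below shNTC on day 8 and above it on day 13, which had been seen for Krt8 and Krt18 before they were chosen, so these values are a description. With shCdk8-2 the change between days was 1.56 for Krt8 (SE 0.08), 1.55 for Krt18 (SE 0.07), 0.97 for Krt7 (SE 0.14) and 0.78 for Krt19 (SE 0.14), where 2.93% of all genes were called higher. With shCdk8-1 it was 0.91 for Krt8 (SE 0.08) and 0.77 for Krt18 (SE 0.07), where 0.397% of all genes were called higher. For Krt7 and Krt19 the day 13 differences themselves were not called.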

How the results depend on the processing

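The 75 keratin differences were recomputed under up to 40 settings, and 1 took the opposite sign with a call: Krt20 with shCdk8-1 on day 8 was -0.33 from the Cy5 channel alone, against 0.03. Under median centring in place of loess, the keratins called were 0 with shCdk8-1 on day 8, 0 with each Cdk8 hairpin on day 13, 2 with shMed12-2 against shNTC, and 0 and 2 for the change between days with shCdk8-1 and shCdk8-2. From Cy5 alone 5 were called with shCdk8-1 on day 8, 1 with shCdk8-1 on day 13 and 1 between the Cdk8 hairpins on day 13. With slide as a fixed block 1 was called with shCdk8-1 on day 13. The call on Krt19 between the Cdk8 hairpins on day 8 was lost with slide as a fixed block (-0.52) and with only the groups compared (-0.50). The cause was not tested. Leaving out each array in turn gave 4 to 5 calls for shCdk8-1 between days, for the Cdk8 hairpins on day 8 and for the shCdk8-2 change between days, 2 to 3 for shCdk8-2 on day 13, and no other change in a count. Each added call was on Krt20, such as 1.03 for the shCdk8-2 change between days without replicate 1 of shNTC on day 13. All genes called numbered 5567 with shMed12-1 (1319 to 6684 over the settings), 3988 with shMed12-2 (1104 to 6149) and 3936 between days in shNTC (945 to 6210), with median centring the lowest. They were 3775 (829 to 5192) and 3136 (322 to 4762) with shCdk8-1 and shCdk8-2 on day 8, 2822 (347 to 4775) and 2587 (203 to 4416) on day 13, 5385 (2319 to 7126) and 6103 (2008 to 8380) between days, and 123 (5 to 401) and 1313 (34 to 2447) for the change between days. Between hairpins they were 3973 (602 to 5790) for Cdk8 on day 8, 2615 (268 to 4734) on day 13, and 4817 (1199 to 6802) for Med12, and 4073 (900 to 5572) for Med12 against Cdk8.

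With the replicate number as a block, 75 of 75 results kept their direction and call, such as Krt8 between days in shNTC cells at 0.92. Counts without the compressed arrays, and with Krt8 and Krt18 in the trophectoderm list, were added after seeing the data. The number of arrays limits the precision.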

Other observations

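Other intermediate filament genes did not share one direction with the keratins. Of 15 measured, 2 were called higher and 5 lower with shMed12-1. The higher ones were Vim (0.55), the filament protein of mesenchymal cells, and Lmna (0.44), a nuclear lamin, and the lower ones included the neuronal filament genes Ina (-1.0) and Nefl (-0.94) and the lamin Lmnb1 (-0.68). With shMed12-2 Nes (1.04), a filament protein of neural progenitors, and Vim (0.78) were called higher and 0 of 15 lower. Without the compressed arrays, 2 were called higher and 2 lower with shMed12-1, and 3 higher and 2 lower with shMed12-2.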
